A study of Mus musculus with 8 samples.

Results

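The comparison set primary mouse hepatic stellate cells kept for 10 days on plastic against quiescent cells taken at 0 h. It used 4 of the 8 arrays of the series, the 2 titled as activated in vitro and the 2 titled as quiescent, and it was read over all 22180 genes that had a probe set with 1 gene symbol. All 4 groups of the series were BALB/c, an inbred mouse strain, and each had 2 arrays. Quiescent cells came from healthy mice and were never seeded. Cultured cells were stellate cells kept on plastic dishes in DMEM with serum and antibiotics. The remaining 4 arrays held unseeded cells of mice given carbon tetrachloride (CCl4), a liver toxin that produces fibrosis, for 2 or 4 weeks, and their values stand beside those of culture where they help to read a change. A treatment protocol that all 8 samples carry names valproic acid, an inhibitor of histone deacetylases, at 2.5 mM from 2 h after seeding. Only the cultured group was seeded, so an effect of that compound, if it was given, cannot be told apart from culture. Whether the 2 arrays of each group stand for different mice or dishes is not stated, so each p-value reflects array-to-array spread that may be purely technical.

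Hepatic stellate cells are pericytes that lie between hepatocytes and the sinusoidal endothelium and store vitamin A as retinyl esters. When the liver is injured they lose this store and become contractile, matrix-producing myofibroblasts. Plastic is far stiffer than liver, and culture on it also removes the cells from their neighbours, from blood flow and from circulating hormones. A fresh isolate can carry hepatocytes, endothelial cells and macrophages, which do not all survive or attach in culture.

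Levels are log2 RMA units, in which a step of 1 is a 2-fold change, and changes are culture minus quiescent on that log2 scale ± standard error (SE) from limma, a linear model fitted across all genes. A gene was called at a Benjamini-Hochberg adjusted p under 0.05. Array medians lay between 4.63 and 4.72. The quiescent arrays differed from each other by a median of 0.19 per gene without regard to sign. As a guide to background, 95% of the values of 1394 olfactory and vomeronasal receptor genes lay below 4.75, and a fold change that starts or ends below that level understates the change in RNA.

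Culture changed the levels of many genes in both directions. Of the 22180 genes, 2869 were higher in culture (12.9%) and 2276 were lower (10.3%), 5145 in all (23.2%). Every count for a gene list below stands against these shares. The falls were the larger changes. More than 8-fold falls numbered 248 and more than 8-fold rises 122, while at 2-fold the counts were 1314 and 1255. Of the rises, 456 started from quiescent levels below the background guide on both arrays, and of the falls, 447 ended below it on both cultured arrays. With 1 array left out in turn, 1582 rises and 1290 falls kept their call in all 8 fits with the arrays of both groups apart. Of the calls, 55.8% were rises, against 24.1% when the arrays were centred on proteasome and ribosome biogenesis genes. That setting moved the median change of all genes from 0.01 to -0.31. Before centring these 2 lists had themselves risen, by medians of 0.49 and 0.57, so centring on them lowers every change.

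**Figure D1:**
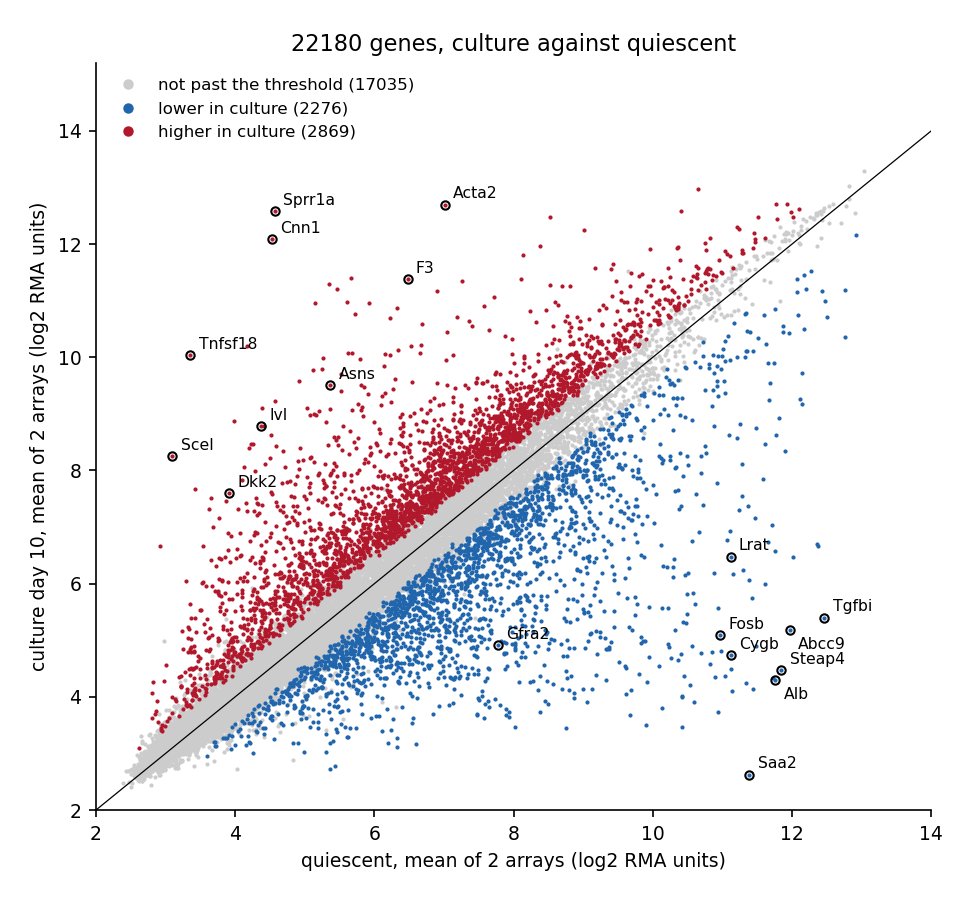
Mean level of each of 22180 genes on the 2 quiescent arrays (x axis) and the 2 cultured arrays (y axis), both in log2 RMA units. The line marks equal levels, colour marks the limma call, and the circled genes are named in the text. The 2869 genes that rose lie above the line and the 2276 that fell lie below it, with Sprr1a highest over its quiescent level and Saa2 lowest.

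The 20 largest rises are described gene by gene. Sprr1a, a small proline-rich protein of the cornified envelope of skin that is also induced in injured muscle and nerve, stood at 3.98 and 5.16 in quiescent replicates 1 and 2 and at 12.54 and 12.62 in culture replicates 1 and 2. That is a 258-fold rise (8.01 ± 0.41, adjusted p = 3.81e-06), the largest among the genes that kept their call in all 8 fits. Cnn1, the smooth muscle protein calponin 1, rose from 4.35 and 4.71 to 12.16 and 12.03, a change of 7.56 ± 0.21. For Tnfsf18, which encodes the T cell costimulatory ligand GITRL, the quiescent arrays read 3.23 and 3.48, below the background guide, and the cultured arrays 10.00 and 10.07, a change of 6.68 ± 0.16. In each of the 3 genes both cultured arrays lay far above both quiescent arrays.

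Some of these genes were also higher on the 4-week CCl4 arrays, in part by less, and others were not called there. Tnc, the matricellular glycoprotein tenascin C, changed by 5.94 ± 0.25 in culture and by 5.62 ± 0.25 at 4 weeks of CCl4. The collagen cross-linking enzyme gene Lox changed by 5.75 and 4.20, the collagen gene Col12a1 by 4.66 and 4.21, and the chondroitin sulfotransferase gene Chst11 by 4.89 and 3.92. All 8 of these values share the same quiescent arrays. By contrast, Tnfsf18 read 3.33 and 3.11 at 4 weeks, with a change of -0.13 ± 0.16 that did not pass (adjusted p = 0.744). Cpe, the prohormone-processing carboxypeptidase E, read 10.08 and 10.31 in culture, 4.18 and 4.15 in quiescent cells and 4.03 and 3.95 at 4 weeks. Scel and Ivl, the cornified envelope proteins sciellin and involucrin, changed by 5.15 ± 0.15 and 4.41 ± 0.15 in culture and by 0.04 ± 0.15 each at 4 weeks. Slco4a1, an organic anion transporter, and Ifi27l2b, an interferon-inducible gene, changed by 4.65 and 4.66 in culture and by -0.03 and -0.15 at 4 weeks. The remaining genes among the 20 largest rises were Acta2, Actg2, Mmp10, Ptgs2, Ankrd1, Lmcd1, F3, Serpinb9b and the unnamed transcript 4833412C05Rik, with changes from 4.71 to 5.82.

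**Figure D2:**
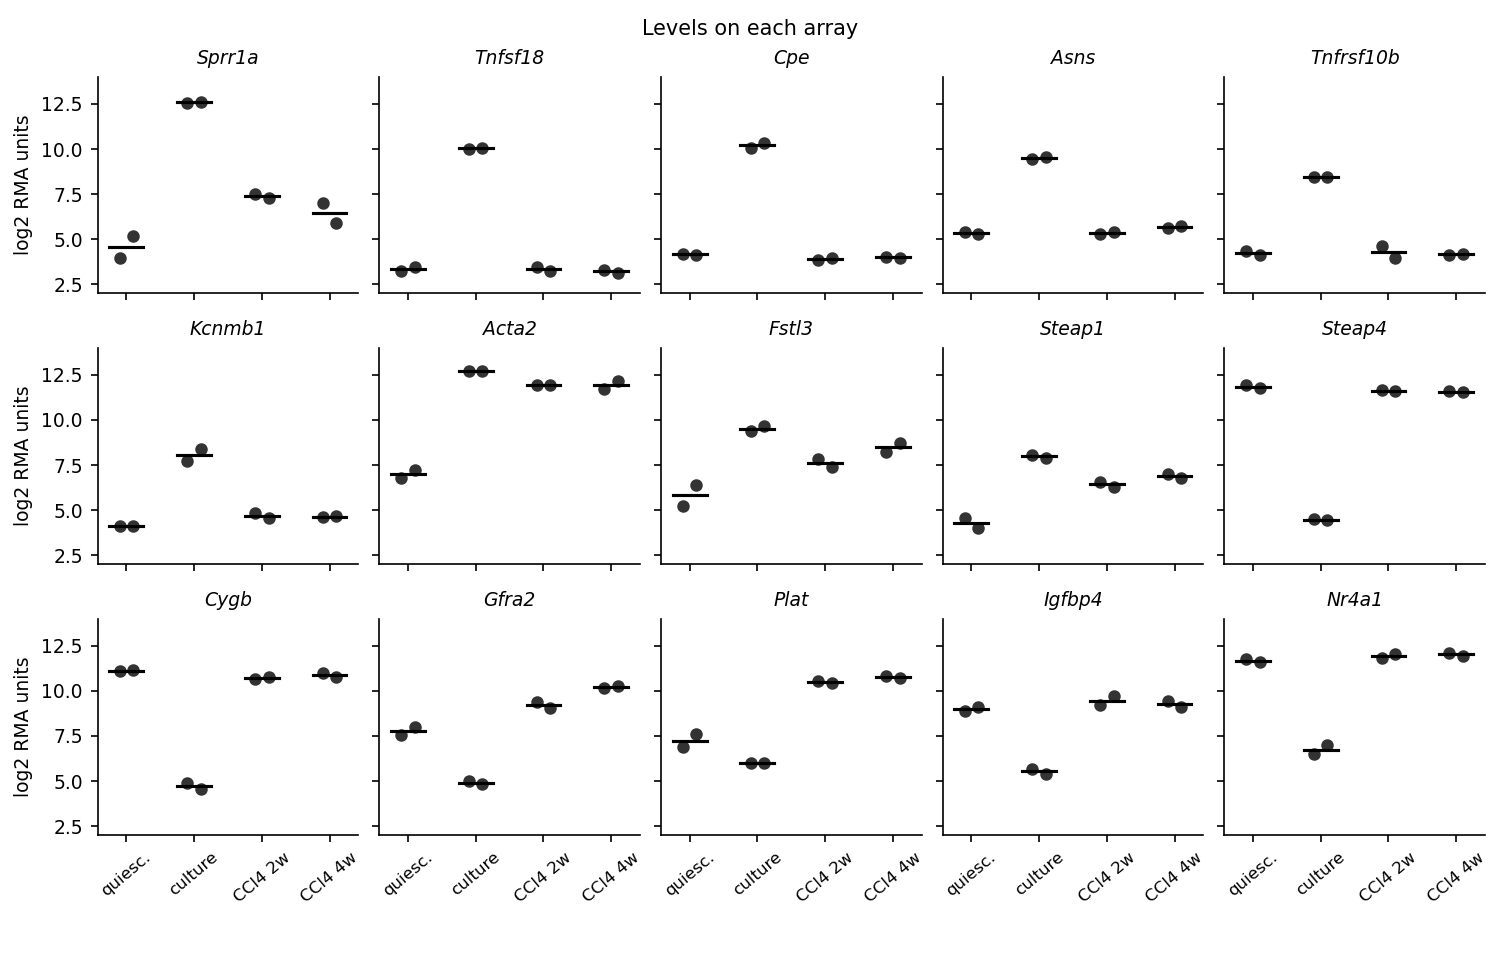
Level of 15 genes on each of the 8 arrays, in log2 RMA units, with each dot 1 array and each bar the mean of 2 arrays. Tnfsf18, Cpe, Asns, Tnfrsf10b and Kcnmb1 were higher on the cultured arrays than on all 6 others, while Steap4, Cygb, Igfbp4 and Nr4a1 were lower there than on all 6 others.

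Markers of other liver cells fell together with the transcripts of the stellate cell itself, so the falls had to be read against them. The median of 28 hepatocyte markers was 9.68 and 8.44 on the quiescent arrays, 4.53 and 4.47 on the cultured arrays, 6.53 and 7.33 at 2 weeks and 5.86 and 5.66 at 4 weeks of CCl4. None of them rose in culture and 25 fell, against 10.3% of all genes, with a median change of -3.80 against 0.01 over all genes. On both cultured arrays 16 of the 28 were below the background guide. Alb, the gene of serum albumin, went from 11.90 and 11.63 to 4.42 and 4.17. Fabp1, Fgg and Mup3, which encode a fatty acid carrier, a fibrinogen chain and a urinary protein, fell (-7.20, -7.10 and -7.03), each to below the guide. Hamp, the gene of the iron hormone hepcidin, read 12.21 and 8.63 in quiescent cells and 3.59 and 3.36 in culture, so its quiescent arrays lay far apart. In bulk RNA, fewer cells of a type and less RNA per cell cannot be told apart.

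Sinusoidal endothelial markers behaved likewise, and those of macrophages less evenly. Of 25 endothelial markers, 24 fell and 0 rose, with a median change of -3.02, and their median level was 9.31 and 8.29 before and 5.48 and 5.16 after culture. Clec4g, an endothelial lectin, fell from 12.17 and 11.28 to 4.33 on both cultured arrays. The scavenger receptor gene Stab1 fell by 2.38 ± 0.32 and the VEGF receptor gene Kdr by 4.66 ± 0.37. Of 23 Kupffer cell and macrophage markers, 17 fell and 2 rose, and the median level went from 7.61 and 8.49 to 5.90 and 5.98. Clec4f and Timd4, markers of resident Kupffer cells, fell (-2.69 and -2.77), and Mrc1, the mannose receptor, by 3.93. The 2 macrophage markers that rose were Lyz2, the gene of lysozyme, from 9.88 and 10.30 to 10.98 and 11.06, and Ms4a7 (0.94 ± 0.27). Ms4a7 lost its call without quiescent replicate 1 or 2, culture replicate 2 or either 4-week array.

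The remaining other-cell lists had fewer called members. Of 18 lymphocyte markers 13 were below the guide in culture and 12 already in quiescent cells, and 1 fell, Ighm (-1.14 ± 0.17), an immunoglobulin gene whose 7 probe sets ran from -5.05 to -0.12. Among 15 neutrophil and monocyte markers 4 fell, led by S100a9, from 10.39 and 8.65 to 4.14 and 5.08. Of 13 MHC class II and dendritic genes 3 fell and 2 rose, and of the 2 rises 0 were called without quiescent replicate 2 or without culture replicate 2. Irf8, a myeloid transcription factor, fell by 2.66 ± 0.41. Cholangiocyte markers numbered 11, with 4 falls (1 without culture replicate 1 and 2 without quiescent replicate 1) led by the water channel gene Aqp1 (-4.49 ± 0.36), which sinusoidal endothelium also expresses. The keratin gene Krt19 went from 4.95 and 5.31 to 6.27 and 6.07. Of 6 erythroid and platelet genes 1 rose, the platelet chemokine gene Ppbp (2.13 ± 0.28), and 1 fell. Portal fibroblast and mesothelial genes numbered 15, of which 7 fell and 1 rose. The rise was Fbln2, the matrix protein fibulin 2, from 5.17 and 6.08 to 10.10 and 10.05. Dpt, the dermatopontin gene, fell from 10.36 and 10.82 to 3.95 and 3.86 while it stood at 11.84 and 11.73 at 4 weeks of CCl4, and Cd34 fell by 2.20 ± 0.21 with 1.58 ± 0.21 at 4 weeks.

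**Figure D3:**
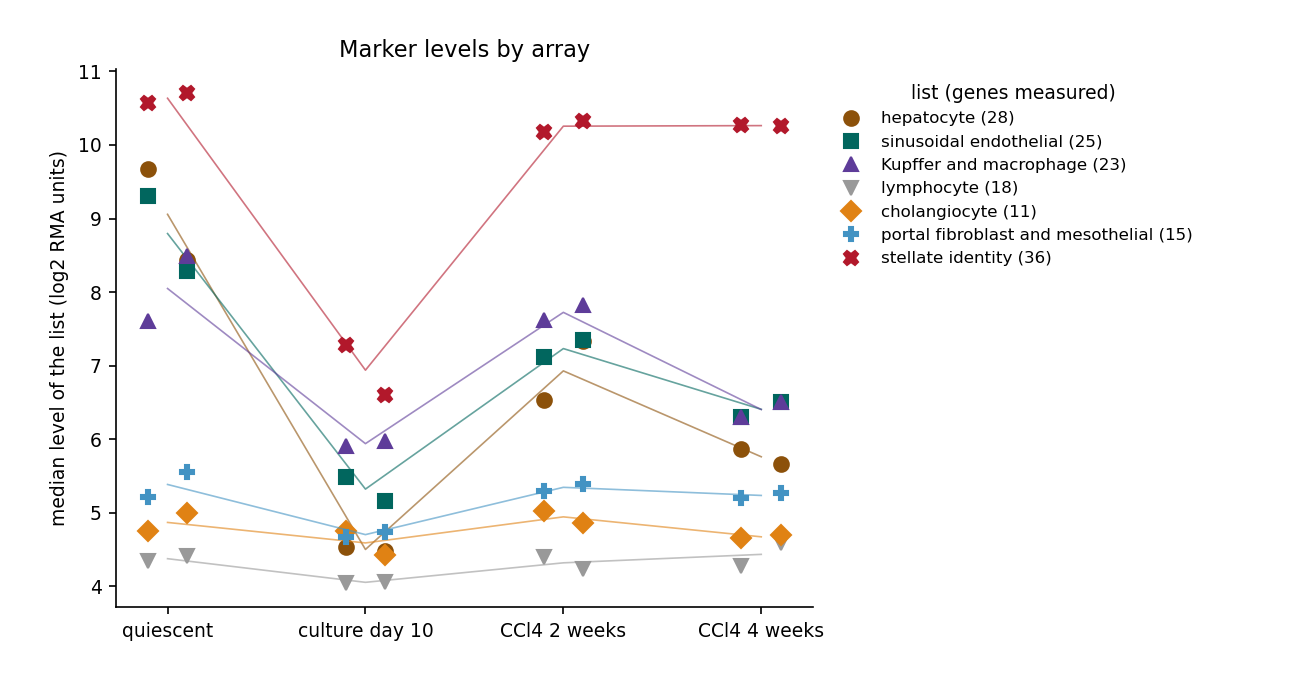
Median level of each marker list on every array, in log2 RMA units, with each symbol 1 array, thin lines joining the group means and the number of measured genes in brackets. Stellate identity genes stood at 10.57 and 10.70 on the quiescent arrays, at 7.28 and 6.60 in culture and between 10.18 and 10.33 on the 4 CCl4 arrays, whereas hepatocyte and endothelial markers were lower on the CCl4 arrays than on the quiescent ones.

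Stellate identity genes fell in culture but differed from the hepatocyte and endothelial lists in how they varied among the unseeded arrays. Of 36 measured genes, 30 fell and 1 rose, with a median change of -2.84 in culture and -0.68 at 4 weeks of CCl4. The hepatocyte and endothelial medians at 4 weeks were -2.33 and -2.04, all against the same quiescent arrays. Between the quiescent arrays, the median hepatocyte marker was 0.80 higher in replicate 1 (22 of 28 genes higher there) and the median endothelial marker 0.89 higher (23 of 25). The median stellate gene was 0.19 lower in replicate 1, and 27 of 36 were higher in replicate 2. Macrophage markers lay on the same side as stellate genes, with a median of -0.21 and 16 of 23 higher in replicate 2. The difference between the quiescent arrays therefore does not set stellate genes apart from macrophage markers. At 4 weeks the macrophage median was -1.52.

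**Figure D4:**
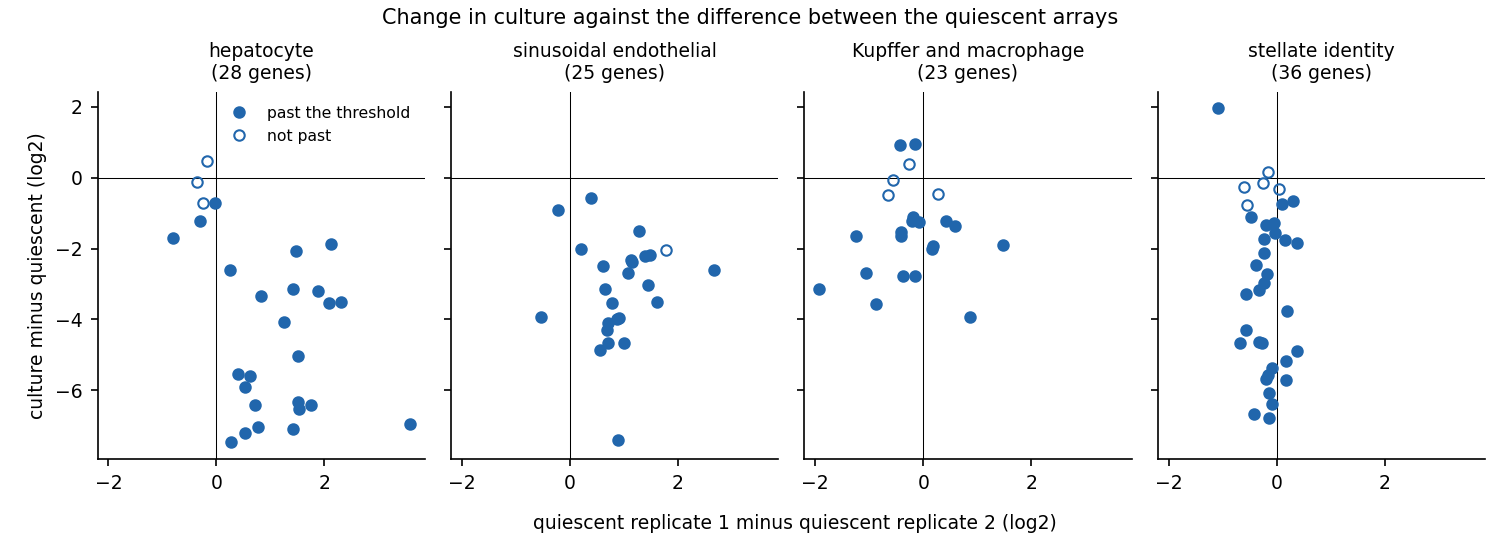
Change in culture (y axis, log2) against the difference between quiescent replicates 1 and 2 (x axis, log2) for the members of 4 marker lists, with filled circles for genes past the threshold. Hepatocyte and endothelial markers lie mostly to the right of 0, higher in quiescent replicate 1, while stellate identity genes lie near 0 over the whole range of falls.

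Abcc9 and Kcnj8, which encode the subunits of the pericyte ATP-sensitive potassium channel, fell in parallel. The quiescent arrays read 11.89 and 12.04 for Abcc9 and the cultured arrays 5.74 and 4.63, a 110-fold fall (-6.79 ± 0.30). Kcnj8 went from 9.52 and 9.69 to 3.65 and 4.45 (-5.56 ± 0.33). Cygb, the stellate globin cytoglobin, read 11.07 and 11.16 in quiescent cells, 4.90 and 4.58 in culture, 10.64 and 10.76 at 2 weeks and 10.96 and 10.76 at 4 weeks. The cultured arrays alone stood low. Lrat, the enzyme that esterifies retinol for storage, went from 10.95 and 11.29 to 7.21 and 5.74, with 11.04 and 10.97 at 4 weeks. Hgf, the hepatocyte growth factor gene, chosen after its values were seen, fell by 5.18 ± 0.13 in culture and read -0.22 ± 0.13 at 4 weeks (adjusted p = 0.435). The collectin genes Colec10 and Colec11 fell (-6.08 and -6.67 in culture, -1.47 and -1.93 at 4 weeks). Reln, the secreted glycoprotein reelin, fell by 4.67 ± 0.26. The member that rose was Bco1, which cleaves beta-carotene to retinal, from 8.23 and 9.32 to 10.70 and 10.76.

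The marker lists hold few of the measured genes, so by their size alone most falls lie outside them. Of 2276 falls, 86 were in an other-cell list, 30 in the stellate list, and 2190 outside the other-cell lists. Among the 248 falls over 8-fold, 39 were in other-cell lists, 17 in the stellate list and 192 in neither. Of the 2190, 436 were at least 0.5 higher in quiescent replicate 1 than in replicate 2, the side on which hepatocyte and endothelial markers lay. Their median change was -1.75 in culture and -0.98 at 4 weeks. Another 210 were at least 0.5 higher in replicate 2 (medians -1.50 and -0.54), and 1544 differed by less than 0.5 between the quiescent arrays (medians -0.93 and -0.40). The shares of all genes that differed as much between the quiescent arrays were not counted. A gene whose quiescent arrays lie further apart also needs a larger fall to be called. These counts and medians therefore do not measure the part of other liver cells, which was not tested gene by gene.

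The 20 largest falls outside the other-cell lists held genes of both patterns. Saa2, Hp, Hpx, Pzp, Ambp and Itih4 encode plasma proteins that hepatocytes make. Saa2, a serum amyloid A gene, fell most among the 20, from 11.99 and 10.78 to 2.71 and 2.54 (-8.76 ± 0.87), with 3.94 and 3.65 at 4 weeks. Haptoglobin, Hp, read 12.21 and 10.67 in quiescent cells, 4.37 and 3.89 in culture and 7.41 and 7.47 at 4 weeks. Both genes were higher in quiescent replicate 1 and low at 4 weeks, as hepatocyte markers were. Steap4, a metalloreductase, read 11.95 and 11.74 in quiescent cells, 4.50 and 4.45 in culture, 11.65 and 11.60 at 2 weeks and 11.59 and 11.55 at 4 weeks. Its fall was 165-fold (-7.37 ± 0.14, adjusted p = 5.23e-08), and the cultured arrays alone were low. Sparcl1, a SPARC-like matrix protein, went from 11.22 and 11.74 to 4.74 and 5.05, with 12.21 and 12.27 at 4 weeks. Tgfbi, an adhesion protein of the matrix, fell from 12.38 and 12.55 to 5.66 and 5.14. Gdf10, a BMP family ligand, fell by 5.69 ± 0.20 in culture and read -0.16 ± 0.20 at 4 weeks. The others were Abcc9, Colec10, Colec11, Cygb, Rgs5, Abi3bp, Olfml1, Fosb, Iigp1 and the noncoding transcript AW112010.

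Genes that keep their call when a marker median is a covariate are few, since the covariate tracks the groups. With the hepatocyte median in the fit, 12 genes were higher and 24 lower, and with the endothelial median 24 and 32. The median SE over all genes rose from 0.17 to 0.72 and 0.74. Called with the one covariate and also with the other were 29 genes, 9 higher and 20 lower, of which 5 were stellate identity genes (Colec10, Cygb, Hgf, Pth1r and Rgs5) and 3 were in other-cell lists (Alb, Dpt and Plvap); these 8 are named for their lists after their values were seen. Cnn1, Tnfsf18, Cpe, Asns, Lox and Ifi27l2b were among the rises, and Steap4, Sparcl1, Tgfbi, Abi3bp, Gdf2 and Fosb among the falls. The estimate for Steap4 was -6.91 and -6.79 with the hepatocyte and endothelial covariate, against -7.37 without. Others of the 29 moved further, as Snord16a (7.07 and 7.32, against 1.95) and Wfdc1 (-7.35 and -7.91, against -4.78). Alb, a hepatocyte gene, read -5.89 and -6.37, against -7.47. A call kept with these covariates therefore cannot tell a stellate change from loss of other cells.

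Most contractile genes on the list rose. Of 30 measured genes of the serum response factor (SRF) and contractile list, 21 rose and 0 fell (12.9% and 10.3% over all genes), with a median change of 1.52 in culture and 1.29 at 4 weeks of CCl4. With quiescent replicate 1 left out, 1 fell. Acta2, smooth muscle alpha-actin, went from 6.78 and 7.24 to 12.71 and 12.69 (5.69 ± 0.20), with 11.70 and 12.18 at 4 weeks. Actg2, the gamma-actin of enteric smooth muscle, went from 5.82 and 5.51 to 11.51 and 11.31, and Lmod1, which nucleates actin filaments in smooth muscle, from 5.21 and 5.19 to 9.13 and 8.96. At 4 weeks these read 7.10 and 8.38 for Actg2 and 6.84 and 7.52 for Lmod1. Mrtfa, the SRF coactivator that senses actin polymerization, and Vcl, the focal adhesion protein vinculin, were chosen after their values were seen. They rose by 1.67 ± 0.16 and 1.26 ± 0.24. The quiescent arrays differed for this list too, with 26 of the 30 genes higher in replicate 2. The median difference, replicate 1 minus replicate 2, was -0.60. With the hepatocyte and endothelial medians as covariates the list's median change was -0.42 and -0.60. The part of the makeup of the isolates in these rises was not tested.

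The promoters of contractile genes were read because 21 of the 30 list members rose, and those printed each hold a motif named below. RefSeq (GRCm38.p6) gave a promoter for 26 of the list's genes. In the 250 bases before the start, on either strand, the TEAD motif GGAATG lay in 11 of 26 (42.3%), against 14.4% of 27025 genes. The CArG box, bound by SRF, lay in 4 of 26 (15.4%), against 1.62%. Only exact matches to CCWWWWWWGG, with W for A or T, counted as a CArG box. Near matches were neither counted nor marked, such as ccctatatgg and ccttgtttgg in the Acta2 promoter. No match to either motif lay in the promoters of Cnn1, Tpm2, Tpm4, Actn1, Pdlim7, Csrp1 and Mrtfa. Those of Cnn2, Tpm1, Cald1 and Flna, not printed, held a match. The list was made of known SRF and contractile genes, so these shares do not bear on culture. Risen and other members were not compared. Where a promoter shown holds both, they do not overlap, and a match is a description of the letters. In the sequences, capitals mark the motifs: GGAATG 146 bases before the start of Acta2 (chr19:34255374-34255623, minus strand), GGAATG 130 bases before the start of Lmod1 (chr1:135324563-135324812, plus strand), and in Vcl (chr14:20929148-20929397, plus strand) a CArG box 227 and a GGAATG 143 bases before the start.
Acta2: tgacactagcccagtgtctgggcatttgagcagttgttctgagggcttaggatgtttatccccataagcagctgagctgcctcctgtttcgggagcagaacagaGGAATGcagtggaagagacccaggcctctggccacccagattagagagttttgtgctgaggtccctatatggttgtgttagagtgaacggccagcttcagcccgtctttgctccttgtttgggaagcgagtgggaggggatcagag
Lmod1: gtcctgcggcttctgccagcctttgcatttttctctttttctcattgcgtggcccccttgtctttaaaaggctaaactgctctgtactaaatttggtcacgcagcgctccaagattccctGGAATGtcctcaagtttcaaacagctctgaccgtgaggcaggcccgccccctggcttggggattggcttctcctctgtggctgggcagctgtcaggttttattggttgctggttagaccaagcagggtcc
Vcl: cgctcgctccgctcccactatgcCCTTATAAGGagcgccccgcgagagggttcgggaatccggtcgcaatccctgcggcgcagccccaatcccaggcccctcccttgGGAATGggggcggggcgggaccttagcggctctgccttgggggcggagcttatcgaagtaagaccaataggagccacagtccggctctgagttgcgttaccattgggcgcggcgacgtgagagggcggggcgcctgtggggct

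Ion channel and gap junction genes changed in both directions. Of 27 such genes 5 rose and 6 fell, against 12.9% and 10.3% over all genes. Kcnmb1, the smooth muscle subunit of the large-conductance calcium-activated potassium channel, went from 4.15 and 4.10 to 7.71 and 8.41, with 4.62 and 4.67 at 4 weeks of CCl4. The calcium-permeable channel genes Trpc6, Trpv2 and Piezo1 rose by 2.60 ± 0.33, 2.17 ± 0.32 and 1.80 ± 0.16. The connexin genes Gja1 and Gja4 fell (-2.49 and -2.82), and Ano1, a calcium-activated chloride channel, changed by -3.70. Gja4 was 1.02 higher in quiescent replicate 1 than in replicate 2, and Gja1 0.90 higher. Of 18 genes of cGMP and nitric oxide signalling 8 fell, among them the natriuretic peptide receptor gene Npr1, the phosphodiesterase gene Pde5a and the soluble guanylate cyclase subunit gene Gucy1a1 (-1.95, -1.65 and -1.22). Npr3, the clearance receptor, rose from 6.09 and 7.25 to 10.24 and 10.19. Mrvi1 was the other of the 2 rises and lost its call without quiescent replicate 1 or either cultured array.

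Of 26 cornified envelope and keratin-type genes 9 rose and 2 fell, with a median of 0.12 that turned to -0.20 when arrays were centred on proteasome and ribosome biogenesis genes. Of all 12 Sprr genes 6 rose and 0 fell, among them Sprr2h (2.50 ± 0.31). Ivl went from 4.39 and 4.36 to 8.87 and 8.69. The falls were the simple-epithelium keratin genes Krt18 (8.50 and 7.83 to 5.27 and 4.65) and Krt8 (7.69 and 7.51 to 5.72 and 6.02), both of which hepatocytes express. Of 29 cadherins and junction genes 5 rose and 5 fell (3 without either cultured array). The desmosomal plakophilin gene Pkp2 rose from 4.63 and 4.85 to 7.94 and 7.67, Ctnnd2, a delta-catenin, by 2.84 ± 0.14, and Cdh11, the mesenchymal cadherin, by 2.28 ± 0.29. Claudin 5, Cldn5, an endothelial junction protein, fell by 2.21 ± 0.21.

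Of 21 genes of the plasminogen system and serpins 12 rose and 5 fell, with a median of 1.12. F3, tissue factor, which starts coagulation, went from 5.98 and 6.97 to 11.21 and 11.56 (4.91 ± 0.29), with 7.24 and 7.47 at 4 weeks. The intracellular serpin genes Serpinb9b and Serpinb9e rose by 4.73 ± 0.16 and 3.75 ± 0.30, and both belong to a multigene family whose members can share probes. Urokinase, Plau, rose by 2.36 in culture and 2.38 at 4 weeks. Its counterpart Plat, tissue plasminogen activator, fell by 1.23 ± 0.22, from 6.88 and 7.60 to a mean of 6.01 ± 0.021 (SD, n = 2), while it stood at 10.81 and 10.70 at 4 weeks. Serpina3n, an acute-phase protease inhibitor, read 11.88 and 8.65 in quiescent cells, 5.10 and 4.27 in culture and 12.30 and 12.22 at 4 weeks. The quiescent arrays of Serpina3n lay 3.22 apart, and Plg, the hepatocyte gene of plasminogen, also fell (-4.53 ± 0.56). Of 23 S100, annexin and galectin genes 13 rose and 2 fell, with a median of 0.74. S100a4, a marker of fibroblasts, went from 5.81 and 5.55 to 10.15 and 9.99 and Anxa3 from 7.16 and 7.35 to 11.38 and 11.31, with 4-week changes of 2.33 and 1.81. Lgals3bp fell by 2.41 ± 0.15 in culture and read 0.00 ± 0.15 at 4 weeks.

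**Figure D5:**
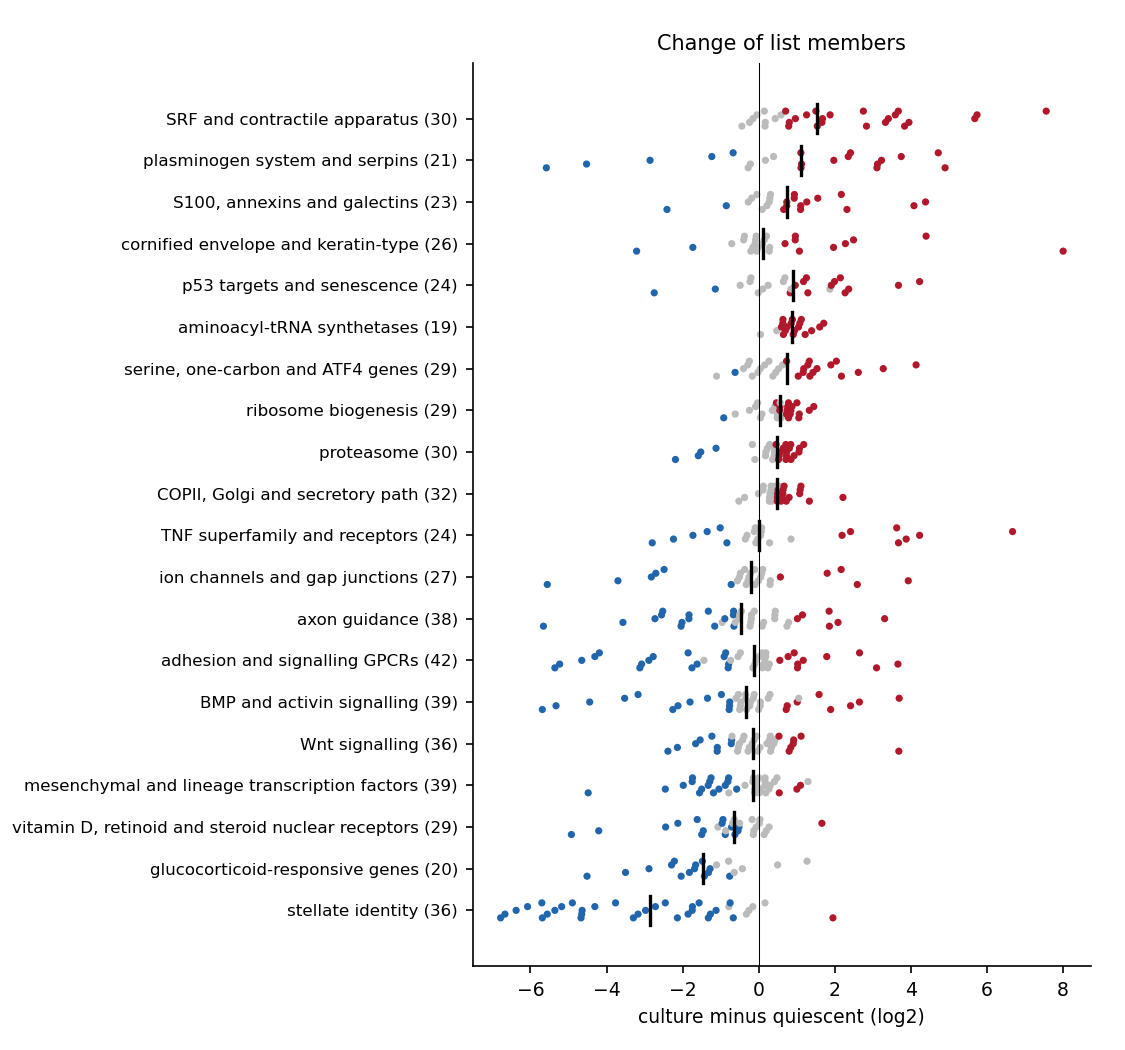
Change in culture (x axis, log2) of every measured member of 20 lists, with the number of genes in brackets, red for rises and blue for falls past the threshold, grey for genes not past it, and a bar at the list's median. Contractile genes (median 1.52) lie mostly to the right of 0 and glucocorticoid-responsive genes (-1.45) to the left, while receptors, ligands and axon guidance genes spread to both sides. The median of cornified envelope genes (0.12) turns to -0.20, and that of TNF genes (0.01) to -0.31, when arrays are centred on proteasome and ribosome biogenesis genes.

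Axon guidance genes changed in both directions. Of 38 axon guidance genes 6 rose and 15 fell, against 12.9% and 10.3% over all genes. Plxnc1, a semaphorin receptor, fell from 10.95 and 10.17 to 4.94 and 4.86, and Sema6a and Sema3f fell (-3.57 and -2.73). Sema3e rose from 3.65 and 3.70 to 6.57 and 7.42, with 3.39 and 3.52 at 4 weeks, and Sema3a, Efnb2 and Slit3 rose by 1.86, 2.09 and 1.85. Plxna4, another semaphorin receptor, fell by 2.55 ± 0.25 in culture and was 1.20 ± 0.25 higher at 4 weeks. Of 24 neurotrophin and neural adhesion genes 3 rose (5 without culture replicate 1) and 4 fell, shares near the 12.9% and 10.3% over all genes. The neurturin receptor gene Gfra2 read 7.78 ± 0.31 (SD, n = 2) in quiescent cells, 4.98 and 4.85 in culture, 9.39 and 9.02 at 2 weeks and 10.16 and 10.26 at 4 weeks. Brain-derived neurotrophic factor, Bdnf, rose by 2.14 ± 0.17, Ncam1 by 2.71 ± 0.35 and Nrcam by 1.65 ± 0.13, whereas the neurotrophin receptor gene Ngfr fell by 1.74 ± 0.17.

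Of 42 G-protein-coupled receptors 10 rose (6 without culture replicate 1) and 16 fell, against 12.9% and 10.3% over all genes. Vipr1, the receptor for vasoactive intestinal peptide, went from 10.19 and 10.28 to 4.73 and 5.03, and S1pr3, a sphingosine 1-phosphate receptor, from 9.85 and 10.03 to 5.18 and 4.23. At 4 weeks S1pr3 read 9.57 and 9.62. Pth1r and Ednrb, the parathyroid hormone and endothelin B receptors, fell (-4.65 and -4.31). The serotonin receptor gene Htr2a rose from 5.22 and 4.15 to 8.39 and 8.30, and Gpr176, an orphan receptor, from 4.92 on both arrays to 8.11 and 7.93. Adgrg6, an adhesion receptor, rose by 2.65 ± 0.38, and P2ry14, a UDP-sugar receptor, by 1.79 ± 0.17.

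TNF superfamily members changed in both directions, and more interleukin-1 members fell than rose. Of 24 TNF superfamily genes 7 rose and 6 fell, against 12.9% and 10.3% over all genes. Besides Tnfsf18, the rises included the death receptor gene Tnfrsf10b (4.33 and 4.13 to 8.47 and 8.46), the decoy receptor gene Tnfrsf23 (3.88 ± 0.23) and Eda2r, the receptor for ectodysplasin A2 (3.68 ± 0.19). At 4 weeks of CCl4 they read -0.06 ± 0.21, 0.15 ± 0.23 and -0.05 ± 0.19. Tnfrsf1a, the main TNF receptor, and the costimulatory ligand gene Tnfsf9 fell (-1.35 and -2.80). Of 15 interleukin-1 genes 1 rose and 6 fell. Il1a went from 10.23 and 9.01 to 4.86 and 4.15 and Il1b, a cytokine of macrophages, from 8.31 and 8.40 to 4.07 and 4.17. The receptor gene Il1r1 fell by 2.32 ± 0.18 in culture and read 0.12 ± 0.18 at 4 weeks. The accessory chain gene Il1rap was the rise, at 1.17 ± 0.14 on its brightest probe set, while its dimmer probe sets gave 0.40 and -0.09 and did not pass.

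Of 39 BMP and activin genes 8 rose and 13 fell, against 12.9% and 10.3% over all genes. Gdf2, the gene of BMP9, went from 11.18 and 11.60 to 6.13 and 5.99, and Bmp2, which sinusoidal endothelium also makes, fell by 3.52 ± 0.25. The matrix modulator gene Smoc2 fell by 4.44 ± 0.20. Fstl3, an activin-binding follistatin, went from 5.26 and 6.37 to 9.38 and 9.64, the BMP-binding gene Bmper rose by 2.65 ± 0.36, and Inhba, the activin A subunit, by 2.42 ± 0.24. At 4 weeks these 3 changed by 2.67, 2.67 and 1.79.

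Counts for Wnt, FGF, Notch, EGF and IGF genes stand against 12.9% rises and 10.3% falls over all genes. Some were near these shares, as the 3 rises among 22 FGF genes, and are not read as a result about the family. Of 36 Wnt genes 7 rose (4 without quiescent replicate 1 or either cultured array) and 9 fell (5 without culture replicate 2). Dkk2, a secreted Wnt antagonist, rose from 4.02 and 3.81 to 7.66 and 7.54, and read 4.17 and 4.08 at 4 weeks. Nkd1, an intracellular inhibitor, and Rspo3, a Wnt-enhancing ligand, fell (-2.39 and -2.14). Of 22 FGF genes 3 rose and 5 fell (3 without culture replicate 1), and Fgfr2 went from 9.53 and 10.70 to 6.72 and 6.63 while it stood at 10.28 and 10.26 at 4 weeks. The feedback inhibitor genes Spry1 and Spry4 fell (-2.59 and -2.26). Of 17 Notch genes 5 fell, led by the target gene Heyl (-3.39 ± 0.31), and 1 rose, Rbpj, whose call was lost in 6 of the 8 fits that left out 1 array (kept only without a 4-week array). Of 16 EGF family genes 5 rose and 1 fell (2 without quiescent replicate 2 or culture replicate 1), with Ereg, the ligand epiregulin, at 7.09 and 8.33 in quiescent cells and 10.98 and 11.16 in culture. Of 20 IGF axis genes 5 rose (3 without quiescent replicate 1 or culture replicate 2) and 4 fell. Igfbp4, an IGF-binding protein, fell from 8.89 and 9.11 to 5.69 and 5.41 and read 9.41 and 9.09 at 4 weeks. Igf1 fell by 1.05 ± 0.17 in culture and was 1.37 ± 0.17 higher at 4 weeks.

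Of 24 p53 and senescence genes 12 rose and 2 fell, with a median of 0.91 in culture and -0.05 at 4 weeks of CCl4. Without quiescent replicate 2, 4 fell, and without quiescent replicate 1 or either cultured array 1 fell. Besides Tnfrsf10b and Eda2r, which are also in the TNF list, Cdkn2b, the cyclin-dependent kinase inhibitor p15, rose by 2.37 ± 0.21 and Hmga2, a chromatin protein, by 2.28 ± 0.39. Mdm2 and Ccng1, chosen after their values were seen, went from 7.55 and 7.53 to 9.51 and 9.57 and from 9.37 and 9.44 to 11.57 and 11.55. Cdkn1a, the inhibitor p21, read 10.84 and 8.45 in quiescent cells and 11.54 and 11.49 in culture (adjusted p = 0.0512). Its quiescent arrays lay 2.39 apart, and it was called without quiescent replicate 1 (3.07, limma adjusted p = 2.5e-05) and without quiescent replicate 2 (0.68, limma adjusted p = 0.0439). The falls were Btg2, also an immediate early gene (-2.75 ± 0.16), and Sesn1 (-1.14 ± 0.30). Of 23 DNA repair genes 7 rose, fewer without culture replicate 1 or quiescent replicate 1, and 0 fell. Of 13 replication-dependent histone genes 4 rose and 0 fell, led by H1f5 (3.40 ± 0.45). On both quiescent arrays 15 of the 23 and 8 of the 13 were below the background guide. When arrays were centred on proteasome and ribosome biogenesis genes, 2 DNA repair genes rose, and of the histone genes 3 rose and 1 fell.

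Genes of amino acid supply and tRNA charging were among the rises, the synthetases in the larger share. Of 29 serine, one-carbon and ATF4 genes 15 rose and 1 fell, with a median of 0.74. The fall, Slc1a5, lost its call without quiescent replicate 1, either cultured array or a 4-week array, and without quiescent replicate 2 the falls numbered 3. Asns, asparagine synthetase, went from 5.41 and 5.32 to 9.44 and 9.57, a 17.7-fold rise (4.14 ± 0.14, adjusted p = 3.31e-07), with 5.62 and 5.72 at 4 weeks. Psat1, an enzyme of serine synthesis, went from 4.00 and 4.30 to 7.44 and 7.42, and Slc7a5, an importer of large amino acids, rose by 2.62 ± 0.29. Nupr1, a stress-induced chromatin protein, rose by 2.18 ± 0.13 and read 0.00 ± 0.13 at 4 weeks. Phgdh, the first enzyme of serine synthesis, did not pass at 0.45 ± 0.26 (adjusted p = 0.286). Of 19 aminoacyl-tRNA synthetase genes 17 rose and 0 fell, with a median of 0.89. When arrays were centred on proteasome and ribosome biogenesis genes the median was 0.56 and 9 rose. Gars, for glycine, went from 8.24 and 8.45 to 10.02 and 10.10, and Nars, for asparagine, from 9.05 and 9.41 to 10.78 and 10.90.

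The Asns promoter is shown for the ATF4 motif TGATGNAA, read on either strand. It lay in the 250 bases before the start of 6 of 24 genes of the ATF4 list (25%) and of 2 of 12 synthetase genes (16.7%), against 3.91% of 27025 genes. The ATF4 list was chosen to hold ATF4 genes, so its share does not bear on culture. In Asns (GRCm38.p6, chr6:7693210-7693459, minus strand) the capitals mark it 23 bases before the start.
Asns: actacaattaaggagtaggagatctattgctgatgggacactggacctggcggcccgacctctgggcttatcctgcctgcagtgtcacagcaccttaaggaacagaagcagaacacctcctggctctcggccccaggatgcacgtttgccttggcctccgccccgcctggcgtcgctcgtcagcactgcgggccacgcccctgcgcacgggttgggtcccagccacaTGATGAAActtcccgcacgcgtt

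Of 29 ribosome biogenesis genes 16 rose (10 without culture replicate 2) and 1 fell, Myc, with a median of 0.57. Myc (-0.92 ± 0.20) lost its call without quiescent replicate 1 or culture replicate 1. Of 30 proteasome genes 16 rose and 4 fell, with a median of 0.49, and 5 rose when arrays were centred on these genes themselves. Psmd14, a deubiquitinase of the proteasome lid, rose by 1.19 ± 0.18. The 4 falls were Psmb8, Psmb9 and Psmb10, the interferon-inducible catalytic subunits, and Psme1, an activator subunit. Psmb9 went from 8.84 and 8.88 to 6.56 and 6.78, and the others fell (-1.59, -1.52 and -1.12). Of 14 guanylate-binding and IRG GTPase genes, also induced by interferon, 11 fell and 0 rose, led by Iigp1, from 10.69 and 10.02 to 4.10 and 5.19. Of 34 H2 genes of the major histocompatibility complex, several of them near-identical, 9 fell and 1 rose (0 without quiescent replicate 2 or culture replicate 2, and 2 without quiescent replicate 1). Of 32 secretory path genes 16 rose and 0 fell, led by the retrieval receptor gene Kdelr3 (2.22 ± 0.27). The rises were fewer without either cultured array, and falls were not absent without quiescent replicate 2. With arrays quantile normalized again 10 rose. With arrays centred on proteasome and ribosome biogenesis genes 4 secretory genes rose and 2 fell, and of the 29 ribosome biogenesis genes 6 rose and 2 fell.

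Of 16 heat shock and chaperone genes 6 rose and 3 fell. Hspa1a, the inducible HSP70 gene, fell from 11.20 and 9.41 to 6.12 and 6.76, with 10.48 and 10.10 at 4 weeks, and shares most of its sequence with Hspa1b (-2.44 ± 0.45). Hspb7 rose by 1.43 ± 0.24. Among immediate early genes, read singly here and not as a list, Fosb and Nr4a1 were likewise high at 0 h and at 4 weeks. Fosb went from 11.07 and 10.87 to 4.92 and 5.27 with 10.83 and 10.89 at 4 weeks. The orphan receptor genes Nr4a1, Nr4a2 and Nr4a3, all 3 members of their family, fell (-4.92, -2.45 and -4.48). On the 4-week arrays Nr4a1 stood at 12.10 and 11.92, above the quiescent 11.73 and 11.58. Quiescent and CCl4 cells were all unseeded, so a response to isolation cannot be told apart from the level in the liver.

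Of 20 glucocorticoid-responsive genes 14 fell and 0 rose (2 without quiescent replicate 1), with a median of -1.45 in culture and -0.21 at 4 weeks. Lcn2, the iron-chelator carrier lipocalin 2, went from 10.55 and 8.84 to 5.37 and 4.99, and Klf15 from 7.82 and 6.21 to 4.74 and 4.71. Both were higher in quiescent replicate 1 than in replicate 2, by 1.70 and 1.61, and Tat, a hepatocyte enzyme gene that fell by 3.50 ± 0.59, is also in the hepatocyte list. Of 29 nuclear receptors 14 fell and 1 rose. Nr1h4, the bile acid receptor FXR, went from 9.17 and 9.72 to 5.50 and 4.98, and Esr1, an estrogen receptor, fell by 2.12 ± 0.37. The rise was Rarb, a retinoic acid receptor that is itself a retinoic acid target, from 7.12 and 7.32 to 8.88 and 8.89. Of 18 clock genes 5 fell and 1 rose (2 without culture replicate 1), against 10.3% and 12.9% over all genes. The activator genes Npas2 and Arntl fell (-2.90 and -1.71) and Per1 by 2.22, and the repressor gene Bhlhe41 rose by 2.58 ± 0.20. The hour at which cells were isolated was not known. Of 39 mesenchymal and lineage factors 16 fell and 3 rose, with Tcf21 and Tbx2 lower (-2.45 and -1.98) and Runx1 higher by 1.10 in culture and 1.11 at 4 weeks. Of 37 homeobox genes 3 rose (1 without culture replicate 2) and 4 fell, against 12.9% and 10.3% over all genes. Prrx1, a mesenchymal homeobox factor, rose from 5.48 and 5.26 to 8.07 and 7.83.

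Iron, redox and lipid genes changed in both directions. Of 20 metal-handling genes 3 rose and 8 fell. The transferrin receptor gene Tfrc went from 5.53 and 5.14 to 8.43 and 8.47, and the metalloreductase genes Steap1 and Steap2 rose by 3.70 and 3.13, opposite to Steap4. At 4 weeks Tfrc read -0.06 ± 0.18 and Steap1 and Steap2 2.60 and 2.33. The ferroxidase gene Cp fell by 4.98 ± 0.31 and the iron exporter gene Slc40a1, also a macrophage marker, changed by -3.55. Of 28 pentose phosphate and glutathione genes 11 rose and 8 fell (5 without culture replicate 2). Nqo1 and Taldo1, a quinone reductase and a pentose phosphate enzyme, rose by 2.06 and 1.89 and read -0.41 and -0.08 at 4 weeks, while the glutathione transferase genes Gsta4 and Gstt1 fell (-3.56 and -2.59). Of 28 sphingolipid and phospholipid enzymes 9 rose and 3 fell (1 without quiescent replicate 1, culture replicate 2 or a 4-week array, and 5 without quiescent replicate 2). The ceramide synthase gene Cers6 rose by 3.18 ± 0.26 and the phospholipase gene Pla2g4a by 2.81 ± 0.20, and Plpp3, a lipid phosphatase, fell by 2.40 ± 0.32. Of 30 lysosome genes 4 rose (2 without quiescent replicate 1 or either cultured array) and 7 fell (2 without culture replicate 2, and 4 without culture replicate 1 or quiescent replicate 2). Over all genes the shares were 12.9% and 10.3%.

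Of 20 imprinted genes 5 rose (3 without culture replicate 1) and 1 fell (2 without a 2-week array). Peg10, a retrotransposon-derived gene, went from 6.02 and 6.27 to 9.46 and 9.26, and Nnat and the noncoding gene Meg3 rose by 2.21 and 1.75. Of 25 bone and cartilage genes 3 rose and 4 fell, against 12.9% and 10.3% over all genes. Alpl, alkaline phosphatase, went from 10.08 and 9.57 to 7.34 and 5.69 with 10.38 and 10.79 at 4 weeks, and Ogn, the proteoglycan osteoglycin, rose by 2.39 ± 0.34. Of 28 cilium genes 2 rose and 9 fell, against the same shares. The falls included Cc2d2a, of the ciliary transition zone (-1.40 ± 0.16). Of 23 complement genes 20 fell, with 0 rises (1 without quiescent replicate 1 or culture replicate 1) and a median of -2.89. Hepatocytes make most of these, but Serping1, the C1 inhibitor, fell from 12.11 and 12.12 to 9.50 and 9.02 and read 12.04 and 12.15 at 4 weeks.

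Few miRNA genes were called, and how many of them lay below the background guide was not counted. Of 483 miRNA genes on the array 14 rose and 20 fell, less than the 12.9% and 10.3% over all genes, and without culture replicate 1 the counts were 26 and 13, and without culture replicate 2 they were 12 and 10. The neighbours Mir23a and Mir27a, chosen after their values were seen, fell together. Mir23a read 7.97 and 8.40 in quiescent cells, 5.41 and 4.79 in culture and 9.73 and 9.71 at 4 weeks, and Mir27a 8.34 and 8.31, 5.93 and 5.22, and 9.54 and 9.26. Mir181b-2 rose from 4.06 and 3.44 to 5.41 and 6.24. These probe sets read the gene and do not tell its arms apart. The main mature arms (RefSeq, GRCm38.p6) are given with the seed, bases 2 to 8, in capitals, at chr8:84208563-84208583, chr8:84208727-84208747 and chr2:38853845-38853868, all on the plus strand. The 3 seeds differ, so these miRNAs belong to separate seed families.
mmu-miR-23a-3p: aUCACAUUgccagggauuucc
mmu-miR-27a-3p: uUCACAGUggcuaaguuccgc
mmu-miR-181b-5p: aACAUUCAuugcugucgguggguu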

How the data were processed

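Total RNA of 8 samples was preamplified and hybridised to 8 Affymetrix arrays, per the labels' protocols. The authors deposited log2 expression values, which the submitters' processing notes credit to Expression Console and RMA; no version is stated. RMA fits the arrays to 1 distribution and so hides shifts common to most transcripts. Of 41345 probe sets, 23521 had 1 gene symbol. For the 1082 genes with several, the probe set with the highest mean over the 8 arrays was used. limma 3.58.1 in R 4.3.3 fitted all 8 arrays in 4 groups (lmFit, eBayes, two-sided tests, Benjamini-Hochberg over 22180 genes, 4 residual and 4.75 prior degrees of freedom), without a replicate block, and was tested on simulated data. For arrays, their number limits the precision.

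The 50 gene lists (1221 of 1347 symbols measured) and the genes compared were chosen with earlier results of these data known. Named genes are the 20 largest rises, the 20 largest falls outside other-cell lists and the 6 largest within them, up to 4 members per list and direction with a call in all 8 fits leaving out 1 array, members against their list, and the first of a list; the text gives part of these, picked after their values were seen, and marks others. Same-numbered arrays did not deviate together (correlations across genes -0.042 to 0.074). Alternatives were arrays used, variance prior, fold threshold, probe set rule, filter, scaling, block, marker covariates and leaving out each array. One gene list and its members are not reported here.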

Additional observations from a re-analysis of the deposited data

Results flagged for a closer look

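Signal also appeared in probe sets that the comparison did not use. Of the 17824 probe sets with no gene symbol or several, 288 were higher and 235 lower in culture than in quiescent cells by the same limma fit, adjusted over those probe sets. They were not named here.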

How the results depend on the processing

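Only 2 arrays stood for each group, so the precision of each change is low, and the makeup of the isolates cannot be told apart from culture. Under the main fit 2869 genes rose and 2276 fell. Against a 2-fold change (treat) the counts were 399 and 557. With arrays centred on proteasome and ribosome biogenesis genes, whose medians rose in culture, they were 1425 and 4484. With the hepatocyte marker median as a covariate they were 12 and 24, and with the sinusoidal endothelial median 24 and 32. The other scalings, the variance prior, the 4 arrays alone, the mean of probe sets and the filter on low values kept both counts within 1.5 times. Leaving out 1 array gave 1968 to 2772 rises and 1537 to 2274 falls, lowest without culture replicate 2. With the replicate number as a block the counts were 2803 and 2239; the numbers did not pair the arrays (correlation of deviations -0.016 between quiescent and cultured arrays), and the block gave Cdkn1a a call.

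Of the 211 named genes, none reversed under the settings other than the covariates. With the hepatocyte covariate 30 changed sign, none of them past the threshold: Bco1 -1.23, Ereg -0.42, Fstl3 -0.12, Gja1 0.21, Gja4 0.25, Hamp 2.50, Hmga2 -0.20, Hspa1a 1.28, Hspa1b 1.59, Hspb7 -0.63, Irf8 1.97, Itih4 0.19, Kdelr3 -0.59, Klf15 1.98, Krt19 -0.16, Mrvi1 -1.84, Myc 0.63, Nr4a2 0.94, Ogn -0.15, Plg 2.41, Plpp3 1.12, S100a9 1.34, Serpina3n 2.10, Sesn1 1.93, Slc1a5 0.83, Stab1 0.84, Tat 3.45, Tbx2 1.04, Trpv2 -1.39 and Vcl -1.19. With the endothelial covariate 31 did, none past the threshold: Bco1 -1.35, Ereg -0.38, Gja1 0.44, Gja4 0.65, Hamp 3.76, Hmga2 -0.40, Hspa1a 0.69, Hspa1b 0.75, Irf8 1.77, Itih4 0.45, Kdelr3 -0.71, Klf15 2.38, Lcn2 0.62, Lyz2 -0.024, Mrvi1 -1.96, Myc 0.47, Ncam1 -1.03, Nr4a2 0.81, Ogn -0.45, Plg 1.85, Plpp3 1.29, S100a9 0.19, Serpina3n 4.09, Sesn1 0.81, Slc1a5 0.66, Stab1 0.99, Tat 3.42, Tbx2 0.61, Tnfrsf1a 0.020, Trpv2 -0.74 and Vcl -1.02. Both medians separate culture from the other groups, and the SE of these fits was larger.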
